A study of Mus musculus with 2 samples.

Results

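The 10 genes described here encode subunits of Polycomb repressive complex 1 (PRC1) that have alternative members within a family: Bmi1 and Pcgf2, Cbx2, Cbx7 and Cbx8, Phc1 and Phc2, Rybp and Yaf2, and the DNA-binding subunit Kdm2b. They were chosen by symbol with earlier results of these data known, so their share of calls below is a description. Of the 10 genes 10 were measured among 22485 named genes, through 14 of the 44397 array features. Mouse embryonic stem (ES) cells were compared before and after retinoic acid (RA) on 2-colour expression arrays, and each genotype, wild-type V6.5 or Utx knockout, had 1 array. Untreated cells of both genotypes grew on gelatin in ES medium with leukaemia inhibitory factor (LIF), the cytokine that keeps mouse ES cells undifferentiated. Treated cells of both genotypes were moved to medium without LIF and with 100 nM RA for 48 h, so RA and LIF withdrawal cannot be told apart, and "RA" below stands for both. The knockout lacks Utx (Kdm6a), an X-linked demethylase that removes the repressive mark H3K27me3. The labels list V6.5 for both genotypes, and the number of knockout clones is not given in the sources used here. Untreated RNA carried Cy3 and RA-treated RNA Cy5, so each array gave 1 log2 ratio per feature, read here as RA-treated over untreated. That direction is the likely reading of the dyes in the labels.

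PRC1 is a Polycomb complex that places ubiquitin on histone H2A and compacts chromatin, and its catalytic pair is RING1 or RNF2 with a PCGF protein. In canonical PRC1, PCGF2 (MEL18) or BMI1 (PCGF4) is joined by a CBX chromodomain protein, which reads H3K27me3, and by a PHC protein, which polymerises. In variant PRC1, RYBP or YAF2 takes the place of the CBX protein, and KDM2B brings the PCGF1 form of the complex to unmethylated CpG islands. In mouse ES cells CBX7 is known as the main canonical reader, and other CBX proteins are known to take over as the cells differentiate. The arrays measured RNA ratios alone, so neither the makeup of the complex nor the level of a subunit relative to its paralog was measured.

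Promoter sequence was read for the members because KDM2B binds CpG-rich DNA and because retinoic acid receptors bind short DNA repeats. RefSeq windows of build GRCm38.p6 were held for 7 of the 10 members, 12 windows in all; Cbx2, Rybp and Yaf2 had none in the table used. The 250 bases before the start are printed for Bmi1, Pcgf2 and Phc1, the members with a single window whose RNA changed on the arrays, 5′ to 3′ on the strand of the gene, with each CG in capitals.
Bmi1, chr2:18676768-18677017, plus strand: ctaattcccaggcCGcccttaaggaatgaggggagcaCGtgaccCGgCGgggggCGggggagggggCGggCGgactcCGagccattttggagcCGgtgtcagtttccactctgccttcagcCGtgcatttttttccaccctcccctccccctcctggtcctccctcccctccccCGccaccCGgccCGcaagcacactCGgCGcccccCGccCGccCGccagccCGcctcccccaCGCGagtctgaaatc
Pcgf2, chr11:97699649-97699898, minus strand: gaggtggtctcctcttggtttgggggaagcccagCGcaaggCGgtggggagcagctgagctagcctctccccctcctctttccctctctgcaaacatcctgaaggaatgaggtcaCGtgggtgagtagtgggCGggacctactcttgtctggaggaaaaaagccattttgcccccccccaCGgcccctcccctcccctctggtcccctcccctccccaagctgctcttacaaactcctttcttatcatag
Phc1, chr6:122340228-122340477, minus strand: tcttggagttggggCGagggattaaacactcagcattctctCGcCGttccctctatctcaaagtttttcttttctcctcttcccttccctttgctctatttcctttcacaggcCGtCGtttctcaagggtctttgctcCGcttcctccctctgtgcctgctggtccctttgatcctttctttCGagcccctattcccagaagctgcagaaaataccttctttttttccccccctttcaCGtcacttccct

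The Bmi1 stretch held 21 CGs, and 16.3% of 32851 RefSeq windows of this length held as many or more. Its paralog Pcgf2 had 5 (55.6% of windows) and Phc1 had 8 (43.0%), against a median of 6 over all windows. Cbx7 had 23 and Cbx8 22. Kdm2b had 4 windows, with 12 and 27 CGs at 2 distal starts and 36 and 38 in 2 overlapping windows at an internal start. Phc2 had 3 windows with 13, 1 and 34. Among the 3 printed promoters, that of Bmi1, the only one of these genes that rose, was the richest in CG. Cbx7, whose RNA ratio was close to 0, had more still. Of the 12 member windows 10 held more CGs than the median, and a link between CG number and direction was not tested. Of the receptor hexamers only AGGTCA and AGTTCA were searched, on both strands, and forms that start with G were not counted. At least 1 of them lay in 3 of the 12 member windows, those of Pcgf2 and of 2 Phc2 starts, and in 24.2% of all windows. A direct repeat of these hexamers spaced by 2 or by 5 bases was found in 0 of the 12, and in 0.0365% and 0.0335% of all windows. At such rates 12 windows are too few to set the members apart from other genes. These matches describe letters in the windows and were not tied to binding.

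The treatment check and the markers of other cells give the setting. Genes that rose or fell here are calls of the fit described below, by which 8.93% of all genes rose and 7.93% fell. Of 5 measured RA response genes 4 rose, among them Cyp26a1, which degrades RA (log2 ratios of 3.54 in V6.5 and 4.27 without Utx). The remaining gene, Crabp2, was higher on both arrays (0.67 in V6.5 and 2.65 without Utx) but did not pass (limma adjusted p = 0.104). A gap between the lines widens the SE of this fit. Of 8 pluripotency genes Pou5f1 and Klf4 fell and 0 rose. All 7 fibroblast markers fell, from -0.80 to -2.12 in V6.5 and from -0.86 to -2.63 in the knockout, and 4 of 4 measured 2-cell-like genes rose. Of the trophoblast list 1 of 7 rose, Gata3, and 0 fell, and of the extraembryonic endoderm list 1 of 7 fell, Lama1, and 0 rose. Of 5 neural genes 1 fell, Tubb3, and 0 rose. Without adjustment (limma, p under 0.05, which 34.7% of all genes reached), 6 of 8 pluripotency genes were lower and 0 higher, 3 of 5 neural genes lower and 0 higher, 4 of 7 trophoblast genes higher and 0 lower, and 3 of 7 endoderm genes higher and 1 lower. The part of these other cells in the PRC1 ratios was not tested, and levels above background are unknown because only ratios were used. In bulk RNA, more cells with a transcript and more transcript per cell cannot be told apart. The Kdm6a feature had ratios of -0.39 and -0.16, which compare treatments within a line and do not check the knockout.

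The RNA of 7 of the 10 PRC1 genes changed with RA in the fit over both arrays: Yaf2, Bmi1, Phc2, Cbx2 and Kdm2b rose, and Phc1 and Pcgf2 fell. Cbx8, Rybp and Cbx7 did not pass. The changes were moderate, from 1.31-fold for Kdm2b to 1.85-fold for Yaf2 on the mean of both arrays. The test was limma with eBayes on the 2 log2 ratios per gene, and p-values were adjusted by Benjamini-Hochberg across the 22485 genes, with 0.05 as the threshold. It treats the 2 lines as repeats of the same response, and no replicate culture stands behind it. The dyes were not swapped, so a dye bias of a gene cannot be told apart from a shared response. By this test 8.93% of all genes rose and 7.93% fell. The adjusted p of the 7 members lay between 0.0171 and 0.0419. Against a 1.5-fold change (limma's treat) 0 of the 7 passed (1 at an unadjusted p under 0.05), the lowest adjusted p being 0.390 for Yaf2, and 1.3% of all genes did. Of the members, 9 of 10 had the same sign on both arrays, as did 75.6% of all genes. The member medians were 0.33 in V6.5 and 0.25 without Utx, against -0.02 on each array over all genes.

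**Figure D1:**
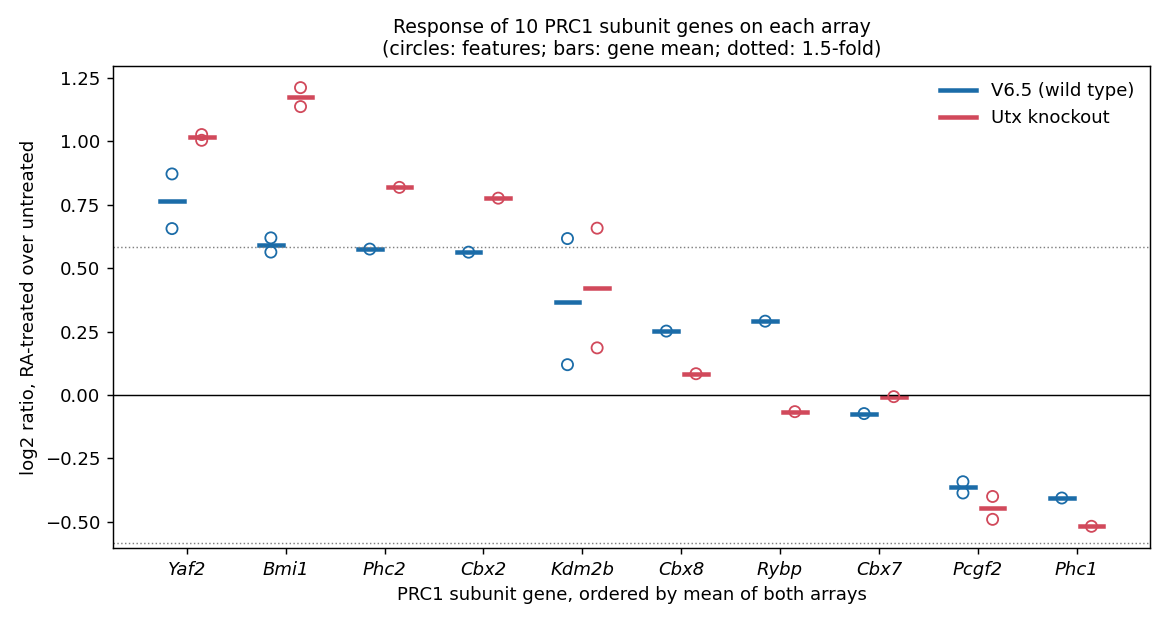
Ratio of RA-treated to untreated RNA on the log2 scale (y axis) for the 10 PRC1 subunit genes (x axis), with V6.5 in blue and the Utx knockout in red; circles are single features, bars the gene mean on 1 array, and dotted lines mark 1.5-fold. The gene means of Yaf2, Bmi1, Phc2 and Cbx2 lie between 0.56 and 1.17 on both arrays, those of Pcgf2 and Phc1 between -0.36 and -0.52, and the 2 Kdm2b features lie apart on both.

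The PCGF subunits, which activate the RING ligase, moved in opposite directions. Bmi1 is a proto-oncogene that represses the Ink4a/Arf locus and supports the renewal of adult stem cells. Its 2 features gave 0.56 and 0.62 in V6.5 and 1.21 and 1.14 without Utx. Gene means were 0.59 and 1.17, a rise of 0.88 ± 0.16 on the log2 scale (moderated SE, n = 2 arrays, limma adjusted p = 0.0411). The features agreed within 0.08 on each array, and the lines differed by 0.58. Both features read the same RNA, so their agreement does not measure the spread between cultures or arrays. Pcgf2, the paralog known from ES cells, had -0.34 and -0.39 in V6.5 and -0.40 and -0.49 without Utx. Gene means were -0.36 and -0.45, and the fitted mean was -0.41 ± 0.08 (SE, n = 2, limma adjusted p = 0.0415). All 4 Bmi1 values were above 0 and all 4 Pcgf2 values below it. Within an array, the Bmi1 ratio exceeded the Pcgf2 ratio by 0.96 in V6.5 and by 1.62 without Utx.

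The genes of the other PCGF proteins, which form variant PRC1, had ratios between -0.07 and 0.22. Pcgf1, the partner of KDM2B, had -0.01 in V6.5 and 0.06 without Utx. Pcgf3 had 0.22 and 0.18, Pcgf5 had 0.04 and 0.13, and Pcgf6 had -0.07 and -0.04. None of these 4 passed in limma (adjusted p from 0.151 to 0.855), and Pcgf3 had the lowest unadjusted p, 0.0536.

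Among the PHC subunits, whose SAM domains link PRC1 complexes into larger assemblies, Phc2 rose and Phc1 fell. Phc2 had 0.58 in V6.5 and 0.82 without Utx, with a fitted mean of 0.70 ± 0.09 (SE, n = 2, limma adjusted p = 0.0243). Phc1, known for its high expression in pluripotent cells, had -0.41 and -0.52, with a fitted mean of -0.46 ± 0.08 (limma adjusted p = 0.0347). Phc1 was the lowest of the 10 members on both arrays, where 9.99% of all genes in V6.5 and 6.20% without Utx lay lower. The Phc2 ratio exceeded the Phc1 ratio by 0.98 in V6.5 and by 1.34 without Utx. Each rests on 1 feature. Phc3, the remaining paralog, had -0.36 and -0.33 and just missed the threshold (limma adjusted p = 0.0521).

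The CBX subunits read H3K27me3 through a chromodomain, and of the 3 listed Cbx2 alone passed. Cbx2, whose charged region compacts nucleosomes, had 0.56 in V6.5 and 0.78 without Utx, with a fitted mean of 0.67 ± 0.09 (SE, n = 2, limma adjusted p = 0.0238). Cbx7, the main reader of ES cells, had -0.07 and -0.01 (adjusted p = 0.747), so that 59.7% of genes in V6.5 and 47.7% without Utx had a higher ratio. Its RNA ratio thus lay near the middle of those of all genes on both arrays. Cbx8 had 0.25 in V6.5 and 0.08 without Utx (adjusted p = 0.251). Cbx2 and Cbx8 are neighbours on chromosome 11 in the RefSeq table. The Cbx2 ratio exceeded that of Cbx8 by 0.31 in V6.5 and by 0.69 without Utx, and that of Cbx7 by 0.64 and 0.78. Cbx6, another CBX paralog, had -0.30 and -0.35 over 3 features (adjusted p = 0.0593).

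Of the subunits that replace CBX in variant PRC1, Yaf2 rose and Rybp did not pass. Yaf2 had the highest mean of the 10 members. Its features gave 0.87 and 0.66 in V6.5 and 1.00 and 1.03 without Utx. Gene means were 0.76 and 1.02, a rise of 0.89 ± 0.10 (SE, n = 2, limma adjusted p = 0.0171), and 4.31% of genes in V6.5 and 2.82% without Utx lay higher. Rybp, which stimulates the ligase and binds ubiquitylated H2A, had 0.29 in V6.5 and -0.07 without Utx on its single feature (adjusted p = 0.551). The Yaf2 ratio was above that of Rybp by 0.47 and 1.08. The lowest Yaf2 feature still lay above Rybp by 0.37 in V6.5 and by 1.07 without Utx.

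Kdm2b, an H3K36 demethylase with a CXXC zinc finger that binds unmethylated CpG, rose on average, but its 2 features differed. One feature gave 0.62 in V6.5 and 0.66 without Utx, the other 0.12 and 0.19. Each kept its value between the arrays within 0.07, while the features lay 0.50 apart in V6.5 and 0.47 apart in the knockout. The SD between features was 0.35 and 0.33, against a median of 0.14 on each array over the 5751 genes with 2 to 9 features, of which 14.8% and 15.7% had an SD as large. The gene mean was 0.39 ± 0.07 (SE, n = 2, limma adjusted p = 0.0419). In a limma fit of all features as separate rows, the higher feature passed (adjusted p = 0.0172) and the lower did not (0.273), so 1 of the 2 features passed by itself. Which Kdm2b transcript each feature detects is not given in the sources used here. Kdm2a, a paralog not known as a PRC1 subunit, had -0.30 and -0.17 and did not pass (adjusted p = 0.131).

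**Figure D2:**
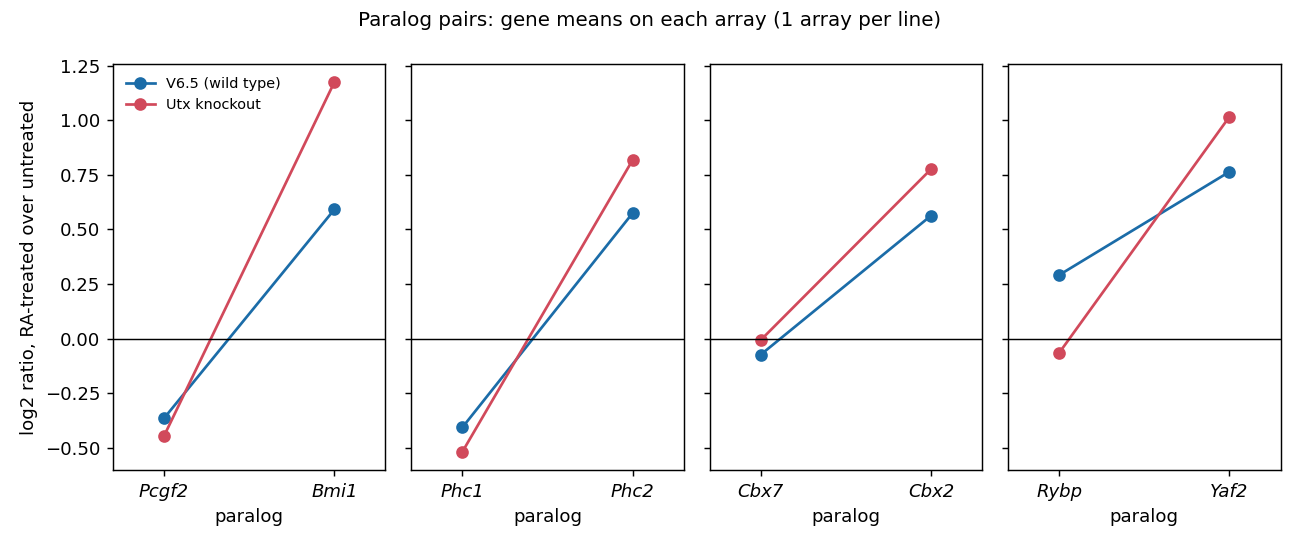
Ratio of RA-treated to untreated RNA on the log2 scale (y axis) for the members of 4 paralog pairs (x axis), each point the gene mean on 1 array, blue for V6.5 and red for the Utx knockout. Pairs were formed with the values known, and the paralog that was higher on both arrays was placed at the right. The gaps in V6.5 and the knockout are 0.96 and 1.62 for Bmi1 over Pcgf2 and 0.64 and 0.78 for Cbx2 over Cbx7.

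Set side by side, Bmi1 against Pcgf2 and Phc2 against Phc1 showed a rise of 1 paralog with a fall of the other. Cbx2 against Cbx7 and Yaf2 against Rybp showed a rise of 1 paralog alone. These 4 pairs were formed with the values known, so their common direction is a description. A gap between 2 genes on the same array does not depend on how that array was centred. In the order of the fitted means, Yaf2 and Bmi1 were 0.01 apart and changed places between the arrays, with Yaf2 higher in V6.5 and Bmi1 in the knockout. Bmi1, Phc2 and Cbx2 followed each other with gaps of 0.19 and 0.03, no larger than the combined SE of each gap (0.19 and 0.13). Gaps over 2 combined SEs lay between the gene means of Cbx2 and Kdm2b (0.27), Kdm2b and Cbx8 (0.23), and Cbx7 and Pcgf2 (0.36). Cbx8, Rybp and Cbx7 were not separated in this way, nor were Pcgf2 and Phc1. The combined SE leaves out the spread between features and treats the genes as independent, though they share the same arrays. By single features Kdm2b was not set apart. Its features averaged 0.64, near Cbx2 at 0.67, and 0.15, near Cbx8 at 0.17.

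On single arrays, with no test, 2 members lay at least 1.5-fold higher after RA in V6.5 (Yaf2 at 1.70-fold and Bmi1 at 1.51-fold), where 6.69% of all genes did. Phc2 at 1.49-fold and Cbx2 at 1.48-fold stood just under this fold. In the knockout 4 did, against 7.28% of all genes: Bmi1 at 2.26-fold, Yaf2 at 2.02-fold, Phc2 at 1.76-fold and Cbx2 at 1.71-fold. At least 1.5-fold lower were 0 members on each array, against 5.36% of genes in V6.5 and 5.06% without Utx. Pcgf2 and Phc1 reached 1.29-fold and 1.33-fold lower in V6.5 and 1.36-fold and 1.43-fold lower in the knockout. At 2-fold there were 0 members in V6.5 and 2 without Utx, against 2.52% and 2.92% of all genes. Folds rest on the log2 reading of the deposited values.

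**Figure D3:**
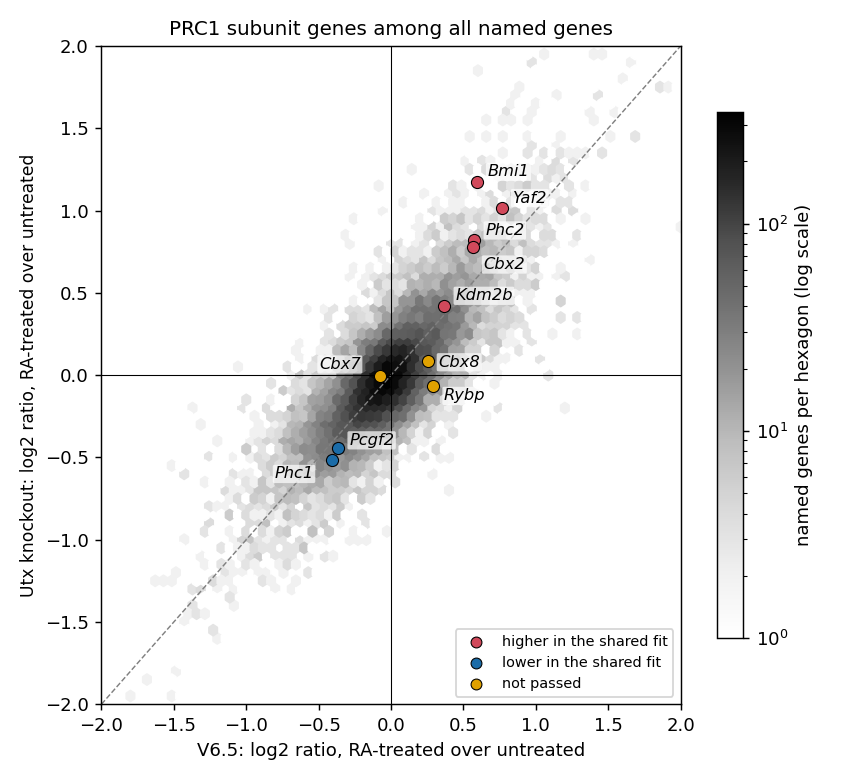
Log2 ratio in V6.5 (x axis) against log2 ratio in the Utx knockout (y axis), with all named genes between -2 and 2 as grey hexagons on a log scale of gene number and the 10 PRC1 genes as points coloured by the shared fit. Bmi1 (0.59 and 1.17) lies farthest above the dashed line of equal ratios, and Rybp (0.29 and -0.07) farthest below it.

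The comparison of the lines asks whether the response differs without Utx. None of the 10 members differed between the lines by 1.5-fold, against 4.38% of all genes. Bmi1 came closest, with a knockout ratio 0.583 above that of V6.5 on the log2 scale, where the 1.5-fold mark is 0.585, and 4.43% of genes differed as much in either direction. Rybp followed, 0.36 lower in the knockout (12.4% of genes differed as much), then Yaf2, 0.25 higher (23.0%), and Phc2, 0.24 higher (24.2%). The remaining 6 differed by 0.21 or less. All 7 members that changed lay farther from 0 in the knockout than in V6.5, those that rose as well as those that fell. Over all genes called by the fit this held for 52.4%. With 1 array per line no difference between lines was tested, and the 7 members share the same 2 arrays.

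Of 28 further genes measured in 3 lists of PRC1 and related Polycomb genes, 3 rose and 1 fell. Over all genes 8.93% rose and 7.93% fell. At an unadjusted limma p under 0.05, 7 were higher and 7 lower, against 34.7% of all genes in either direction. The medians of the 28 genes were -0.06 in V6.5 and -0.05 without Utx. The catalytic subunits did not pass: Ring1 had 0.31 and 0.26 (limma adjusted p = 0.0763) and Rnf2, the main ligase of ES cells, had -0.14 and 0.05 (0.747). A list of 6 measured genes was set beside canonical PRC1, and not all of them encode its subunits. In it Scml2, a germline-associated Polycomb protein, rose by 0.63 ± 0.07 over 3 features (SE, n = 2, limma adjusted p = 0.0192). Sfmbt1, which is not an established PRC1 subunit, had 0.36 on each array and rose (limma adjusted p = 0.0491). Among 20 variant PRC1 genes E2f6, a DNA-binding repressor found in the PCGF6 complex, rose by 0.66 ± 0.07 (adjusted p = 0.0178) and the deacetylase Hdac2 fell on both arrays (-0.41 and -0.45 over 10 features). Mga (-0.60 and -0.20) and L3mbtl2 (-0.23 and -0.61), both of the PCGF6 complex, lay past 1.5-fold on 1 array each and did not pass. No difference in the share of calls between the 10 members and these genes was tested.

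Of 7 genes of H2A deubiquitylation, Usp16, a deubiquitylase, rose by 0.44 ± 0.07 (SE, n = 2, limma adjusted p = 0.0338) and 0 fell (2 and 0 at an unadjusted p under 0.05, again against 34.7% of all genes). The list medians were 0.13 and -0.04 on the V6.5 and knockout arrays. By the shared fit 8.93% of all genes rose and 7.93% fell, for comparison with this list and those below. Of 12 PRC2 genes, which write the mark that CBX proteins read, Eed fell to -0.43 on average (adjusted p = 0.0346) and 0 rose (3 lower and 0 higher at an unadjusted p under 0.05, against the same 34.7%, list medians of -0.13 and -0.07). Phf19, an accessory subunit of PRC2, had -0.97 in V6.5 and 0.81 without Utx on its single feature and did not pass. Of 11 measured loci known as Polycomb targets, of which 7 are also in the marker lists above, Nkx2-5 rose (0.46 and 0.73) and 0 fell in limma, with 4 higher and 0 lower at an unadjusted p under 0.05, a share near the 34.7% of all genes, and list medians of 0.23 and 0.27. Cdkn2a, the Ink4a/Arf gene repressed by BMI1, had -0.15 and 0.36 and did not pass. Its neighbour Cdkn2b had 0.01 and -0.66 and did not pass either (adjusted p = 0.673 and 0.299).

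**Figure D4:**
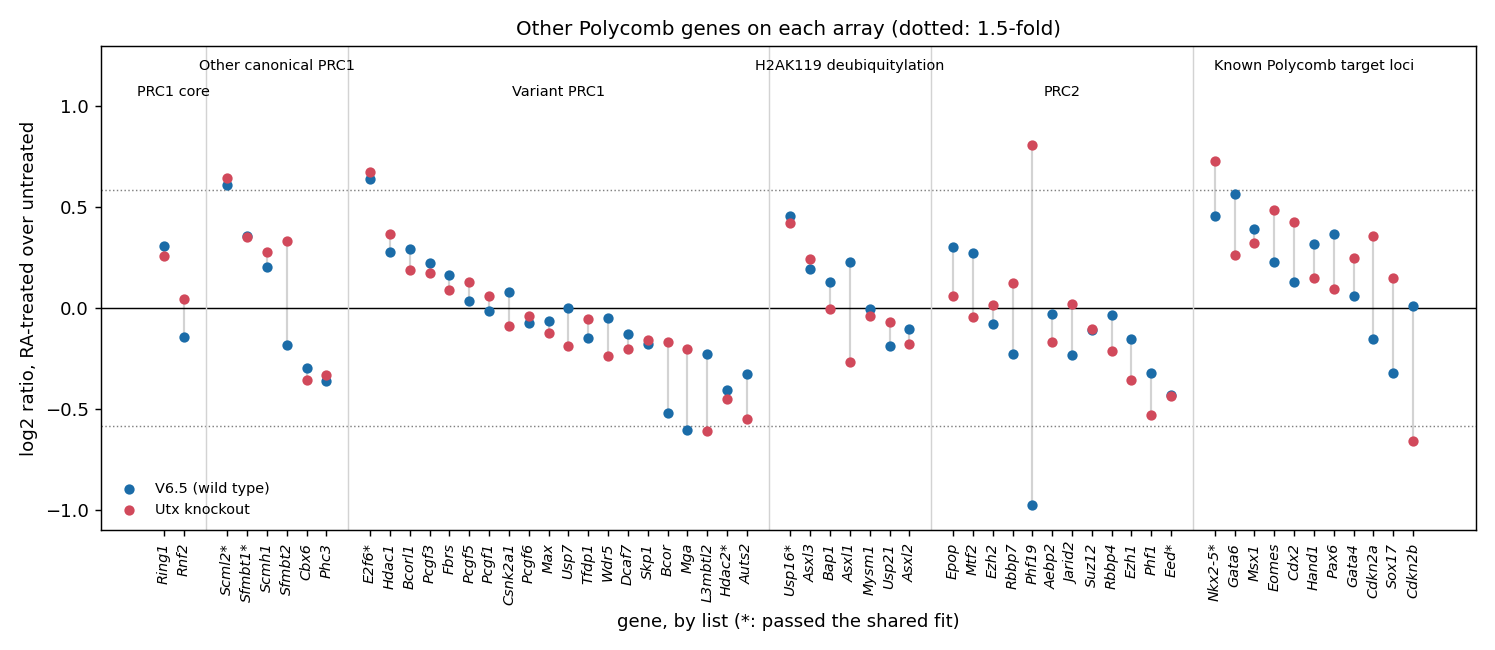
Ratio of RA-treated to untreated RNA on the log2 scale (y axis) for the other Polycomb genes in 6 lists (x axis), blue for V6.5 and red for the Utx knockout, with a grey line joining the arrays and an asterisk for genes that passed the shared fit. Most points lie within the dotted 1.5-fold lines, and Phf19 has the longest joining line (-0.97 and 0.81).

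By Euclidean distance between the pairs of log2 ratios over the 2 arrays, the genes nearest to Yaf2, the member with the highest mean, were Syce1 (0.79 and 1.02), Elovl4 (0.75 and 0.99) and Mab21l4 (0.76 and 0.99). Those nearest to Phc1, the lowest, were Fkbp15 (-0.41 and -0.53), Accsl (-0.41 and -0.51) and Rslcan18 (-0.40 and -0.52). A likeness over 2 values is weak, as 37 genes lay within 0.1 of Yaf2 and 298 within 0.1 of Phc1.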

How the data were processed

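Per the labels, total RNA was amplified from an oligo-dT primer and labelled with Cy3 (untreated) or Cy5 (RA-treated), 1 array per line. The deposited values are log2 ratios as inferred from their range; the authors centred each array on a mean of 0, limma is named without version in the submitters' processing notes, and the background correction is not given in the sources used here. Both arrays carry the same dye orientation, so a dye bias of a gene adds equally to its ratio in each line. The fit cannot tell such a bias apart from a response shared by the lines. Features were named through the platform annotation (33026 with 1 symbol, 0 with several, 11371 with none), and the features of a gene were averaged. All genes were fitted with limma 3.58.1 in R 4.3.3 (intercept over 2 arrays, eBayes, 1 residual and 2.98 prior degrees of freedom, two-sided), after a check on simulated data. Its SEs come from the gap between the 2 lines after eBayes shrinkage. Spot intensities were not used, and precision is limited by the number of arrays. Genes named were all members, their paralogs, every gene of the 6 Polycomb lists that passed or lay past 1.5-fold on an array, and the 3 genes nearest to the highest and to the lowest member; Cdkn2a and the few cell type markers named were picked after their values were seen. Members and lists were chosen with earlier results of these data known. Alternatives were the median of features, median centring, robust eBayes, treat, features as rows, a filter at 0.1, an adjusted p of 0.1, 2-fold, and every feature past the fold. Remaining steps ran in Python 3.11.15 (pandas 2.3.3).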

Additional observations from a re-analysis of the deposited data

Results flagged for a closer look

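Some genes had ratios of opposite sign on the 2 arrays, a difference between the lines that was not tested. Opposite signs were common, as 75.6% of all genes and 9 of the 10 members had the same sign on both. Among the members this was Rybp, with a knockout ratio minus V6.5 ratio of -0.36 (0.29 in V6.5, -0.07 in the knockout). Among the other Polycomb genes named, Phf19 differed by 1.78 (-0.97 and 0.81), which 0.089% of all genes matched or exceeded, and Cdkn2b differed by -0.67 (0.01 and -0.66). Cdkn2a, picked after its values were seen, differed by 0.51 (-0.15 and 0.36). Listed genes not named above also had opposite signs, among them Sfmbt2 (-0.18 and 0.33), Asxl1 (0.23 and -0.27) and Rbbp7 (-0.23 and 0.13). Rnf2 differed by 0.19 and Pcgf1 by 0.074, with at least 1 ratio of each within 0.05 of 0.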

How the results depend on the processing

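The 5 rising and 2 falling members kept their direction and their side of the threshold with the median of features, median centring and robust eBayes. The counts of 5 and 2 were also the same with a filter at 0.1, at an adjusted p of 0.1, and with features as rows where 1 passing feature was enough; for Kdm2b 1 of 2 features passed there. Tested against a 1.5-fold change with treat, 0 members rose and 0 fell, as 1.3% of all genes passed that test; the lowest adjusted p was 0.390, for Yaf2. With 2-fold in place of 1.5-fold, the members past the fold went from 2 to 0 in V6.5 and from 4 to 2 in the knockout, and with every feature required, from 2 to 1 in V6.5, since 1 Bmi1 feature (0.56) fell short. Median centring brought Phc2 past 1.5-fold in V6.5 as the third member there. The difference between the lines past the fold stayed at 0 members under each alternative run. No paired analysis was possible because each line has 1 array and no replicate numbers. Bmi1, Kdm2b and Pcgf2 passed with adjusted p above 0.04.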
